A study of Homo sapiens with 20 samples.

Results

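The genes described are 10 chemokine genes read in the MII mammary epithelial line: CXCL1, CXCL2, CXCL3, CXCL5, CXCL6, CXCL8, CXCL10, CXCL11, CXCL16 and CCL20. They were taken by name, with every probe set annotated to them, which gave 16 probe sets for 10 of the 19775 genes tested. MII (MCF10-T1k) is a human mammary epithelial line transformed with RAS, and all arrays come from this one line. RNA was measured on 20 arrays in 5 groups of 4 biological replicates, lettered A to D. One group received siRNA against both APC and TAZ (siAPC/siTAZ), and one received siRNA against APC (siAPC). Another received siRNA against both beta-catenin and TAZ (sibcat/siTAZ), and another siRNA against beta-catenin (sibcat). The control group received siRNA against GFP (siGFP). No group received TAZ siRNA by itself, so the effect of TAZ siRNA is read only on top of an APC or a beta-catenin siRNA. All cells grew in DMEM/F12 medium with insulin, EGF, hydrocortisone and cholera toxin, were transfected by lipofection and gave total RNA. Neither the siRNA sequences nor the time of harvest is given in the sources used. The labels do not say whether the replicates came from separate cultures, so the p-values measure the spread between these arrays only, which may be technical.

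Chemokines are small secreted proteins that draw leukocytes along a gradient by binding receptors on them. CXCL1, CXCL2, CXCL3, CXCL5, CXCL6 and CXCL8 (interleukin-8) carry the residues glutamate, leucine and arginine before their first cysteine, bind the receptor CXCR2 and attract neutrophils, and CXCL6 and CXCL8 bind CXCR1 as well. CXCL10 and CXCL11 are induced by interferons and bind CXCR3 on T and NK cells, CXCL16 is a membrane-anchored ligand of CXCR6 that the protease ADAM10 sheds, and CCL20 binds CCR6. In epithelial cells, inflammatory cytokines induce many of these genes through NF-kB factors. APC is part of the destruction complex that keeps beta-catenin low, and TAZ, encoded by WWTR1, works as a coactivator with TEAD transcription factors. The series title puts TAZ forward as a mediator of Wnt signalling, and the comparisons ask how each depletion, and the addition of TAZ siRNA to it, moved the chemokine genes.

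Of the members, 8 lie on chromosome 4 in the RefSeq annotation. CXCL8 and CXCL6 are next to each other, PF4V1 stands between CXCL6 and CXCL1, and CXCL5, CXCL3 and CXCL2 follow one another after PPBP. CXCL10 and CXCL11 are neighbours farther along the chromosome, CCL20 lies on chromosome 2 and CXCL16 on chromosome 17. Promoter sequences of RefSeq (GRCh38.p14), 250 bases before to 50 bases after the annotated start, were found for 9 of the 10 genes and not for CXCL16. The letters GGNNNTTCC, a form of the NF-kB (kappa-B) site with N for any base, were searched on both strands. They stood in 9 of 9 member promoters, and in 20.1% of 35116 human promoters of the same length. The search letters were picked with known kappa-B sites of these genes in mind, so the count is a description only.

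The stretches around the matches of CXCL1, CXCL2 and CXCL3 are shown because these genes are close relatives, and their values are given apart below. They run 5′ to 3′ on the gene's strand, and capitals mark the kappa-B matches. The CXCL1 stretch is chr4:73869290-73869373 (plus strand), the CXCL2 stretch is chr4:74099215-74099297 (minus strand) and the CXCL3 stretch is chr4:74038709-74038792 (minus strand).
CXCL1: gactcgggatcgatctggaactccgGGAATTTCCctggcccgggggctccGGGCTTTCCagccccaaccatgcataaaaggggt
CXCL2: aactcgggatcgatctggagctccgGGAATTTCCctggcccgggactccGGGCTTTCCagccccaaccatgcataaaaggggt
CXCL3: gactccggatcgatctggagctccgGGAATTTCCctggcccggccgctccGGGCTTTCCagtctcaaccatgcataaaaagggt

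CXCL5 and CXCL6 are shown as a second such pair, with capitals as above, at chr4:73998734-73998792 (minus strand) for CXCL5 and chr4:73836564-73836622 (plus strand) for CXCL6.
CXCL5: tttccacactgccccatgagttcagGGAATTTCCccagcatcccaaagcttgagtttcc
CXCL6: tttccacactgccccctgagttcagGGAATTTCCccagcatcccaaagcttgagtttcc

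In a global alignment of the promoters, CXCL5 and CXCL6 were identical at 83.1% of columns, CXCL1 and CXCL3 at 82.5%, CXCL2 and CXCL3 at 73.8%, and CXCL1 and CXCL2 at 71.9%. The other pairs among 36 reached at most 55.4%, and the lowest was 44.3%.

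The 250 bases before the start are shown for CXCL8 and CXCL10, which hold matches to the largest number of different motifs searched. Capitals mark every match. The CXCL8 stretch is chr4:73740319-73740568 (plus strand) and the CXCL10 stretch is chr4:76023498-76023747 (minus strand).
CXCL8: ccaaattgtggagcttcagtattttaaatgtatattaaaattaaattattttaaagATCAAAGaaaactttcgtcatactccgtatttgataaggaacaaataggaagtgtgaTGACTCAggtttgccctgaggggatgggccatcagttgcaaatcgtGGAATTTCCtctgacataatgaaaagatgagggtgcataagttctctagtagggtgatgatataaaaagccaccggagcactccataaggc
CXCL10: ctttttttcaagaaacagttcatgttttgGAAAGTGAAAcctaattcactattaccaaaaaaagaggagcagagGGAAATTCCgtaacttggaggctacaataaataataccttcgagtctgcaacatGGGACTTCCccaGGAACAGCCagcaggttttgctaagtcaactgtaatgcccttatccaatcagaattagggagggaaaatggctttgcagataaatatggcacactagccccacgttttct

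In CXCL8, the first capitals are the TCF/LEF letters CTTTGAT on the other strand (2.6% of all promoters), the next are the AP-1 letters TGANTCA (7.7%), and the last are kappa-B. In CXCL10, the first capitals are the core of an interferon-stimulated response element, spelled GAAA, any 2 bases, then GAAA (3.6% of all promoters, no other member), and the other 3 are kappa-B. The TEAD letters GGAATG, held by 14.0% of all promoters, matched in 2 of 9 members, CXCL10 (bases 5 to 10 after the start) and CCL20 (bases -45 to -40). The AP-1 letters matched in CXCL11 besides CXCL8. No match overlapped a match of another motif. The stretches of CXCL11, at chr4:76036112-76036170 (minus strand), and CCL20, at chr2:227813738-227813796 (plus strand), are given to complete the set, with kappa-B matches in capitals, and the CCL20 match lies on the other strand.
CXCL11: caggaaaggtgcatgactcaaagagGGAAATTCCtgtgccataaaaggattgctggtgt
CCL20: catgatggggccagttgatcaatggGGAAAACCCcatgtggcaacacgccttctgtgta
A match of letters is not a bound site, and binding was not measured in these data.

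**Figure D1:**
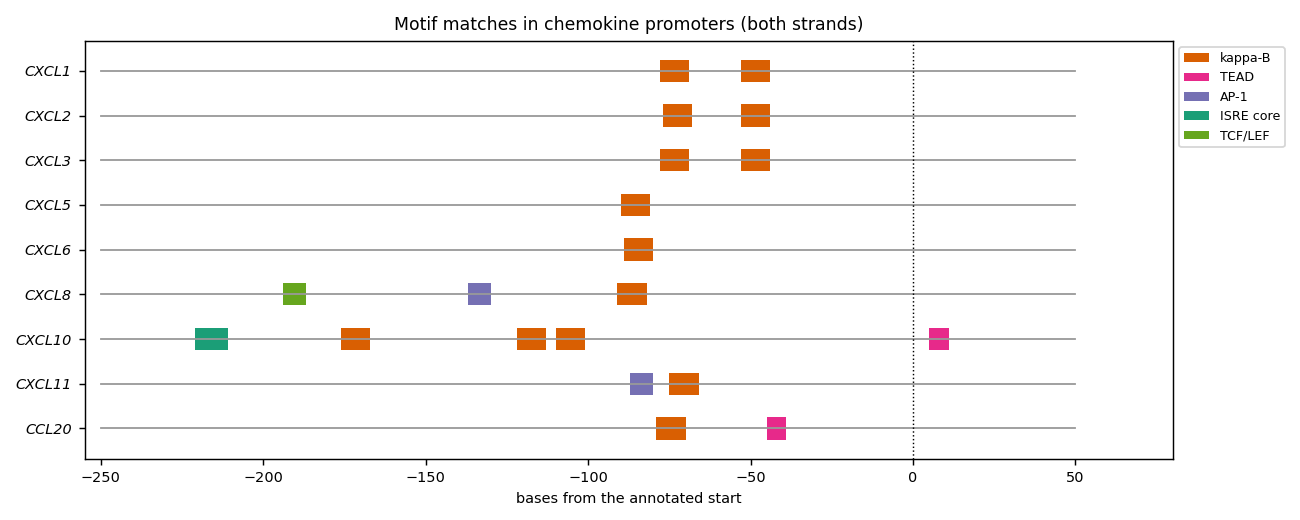
Motif matches in 9 chemokine promoters, by distance in bases from the annotated start (250 before to 50 after, horizontal axis), 1 row per gene. Coloured boxes stand for the 5 motifs searched, and every row holds at least 1 kappa-B match.

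The log2 array medians ran from 5.07 to 5.11, and every array correlated with the others of its group at 0.9964 or more. The targets of the siRNAs were lowered: APC by 0.88 in siAPC cells (adjusted p = 4.4e-11, limma) and CTNNB1, the beta-catenin gene, by 1.33 in sibcat cells (3.6e-14), both against siGFP. WWTR1 fell by 2.66 in siAPC/siTAZ against siAPC cells (2.8e-18) and by 2.21 in sibcat/siTAZ against sibcat cells (8.9e-17). Adding TAZ siRNA was accompanied by lower levels of the first target too: APC fell by 0.46 in siAPC/siTAZ against siAPC cells (5.1e-07) and CTNNB1 fell by 1.41 in sibcat/siTAZ against sibcat cells (1.5e-14). In the single depletions WWTR1 also fell, by 0.41 in siAPC and 0.43 in sibcat cells against siGFP (3.0e-06 and 2.0e-06). The ACTB 3′ minus 5′ probe signal, a measure of RNA integrity on which higher means more 3′ bias, averaged 1.99 in siAPC/siTAZ, 1.57 in siAPC, 2.04 in sibcat/siTAZ, 1.81 in sibcat and 1.83 in siGFP cells. It moved with the groups, and its part in the differences below was not tested. All 6 epithelial markers lay above the array median in each group mean, with a mean level of 10.83 to 10.90 in siAPC/siTAZ against 11.39 to 11.42 in siAPC arrays, and 10.87 to 10.91 in sibcat/siTAZ against 11.11 to 11.32 in sibcat arrays, with 11.51 to 11.56 in siGFP arrays. With TAZ siRNA 1 of the 6 rose (KRT5) and 5 fell on APC depletion (median -0.58), where 20.7% of all genes rose and 22.8% fell. On beta-catenin depletion 1 rose and 4 fell with it (median -0.27), where 18.0% and 13.7% of all genes did. The part of these shifts in the chemokine differences was not tested. Of 7 leukocyte markers measured, 5 or 6 lay below it in each group, among them PTPRC, which defines leukocytes, and the mean level of the 7 ran from 4.03 to 4.31 over all arrays. Of 5 endothelial markers, 3 or 4 lay below it, with a mean level of 4.04 to 4.86. The mean level of 6 fibroblast markers was 7.76 to 7.89 in siAPC/siTAZ against 6.30 to 6.45 in siAPC arrays, and 7.35 to 7.50 in sibcat/siTAZ against 6.34 to 6.47 in sibcat arrays, with 6.71 to 6.81 in siGFP arrays. With TAZ siRNA 4 of the 6 rose and 1 fell on APC depletion by limma (20.7% and 22.8% of all genes). On beta-catenin depletion 3 rose and 0 fell with it (18.0% and 13.7%). COL1A1 averaged 11.22 in siAPC/siTAZ against 8.54 in siAPC cells, and COL3A1 9.86 against 5.08, while COL1A2 and LUM lay below the array median in every group. DCN averaged 12.505 in siAPC/siTAZ against 11.32 in siAPC cells and lay far above the array medians in every group. The part of this shift in the chemokine differences was not tested.

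In all the comparisons below, an adjusted p under 0.05 over all 19775 genes counts as a call, and differences are on the log2 scale. With 4 arrays a group, standard errors (SE) of the pairwise differences of members lay between 0.04 and 0.14. Depletion of APC raised 4 of the 10 chemokine genes and lowered 4 (siAPC against siGFP), where 21.3% of all genes were called higher and 18.7% lower. Depletion of beta-catenin raised 1 and lowered 5, where 21.4% and 15.7% of all genes were. Both comparisons share the siGFP arrays. TAZ siRNA raised 7 and lowered 2 members on APC depletion (20.7% and 22.8% of all genes) and raised 6 and lowered 2 on beta-catenin depletion (18.0% and 13.7%). These comparisons share no arrays, and 8 members were called the same way in both, 6 higher and 2 lower, where 20.7% of all genes were called the same way in both. The median difference of the 10 members was 0.74 with TAZ siRNA on APC depletion and 0.87 on beta-catenin depletion, beside medians over all genes of -0.03 and 0.01.

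**Figure D2:**
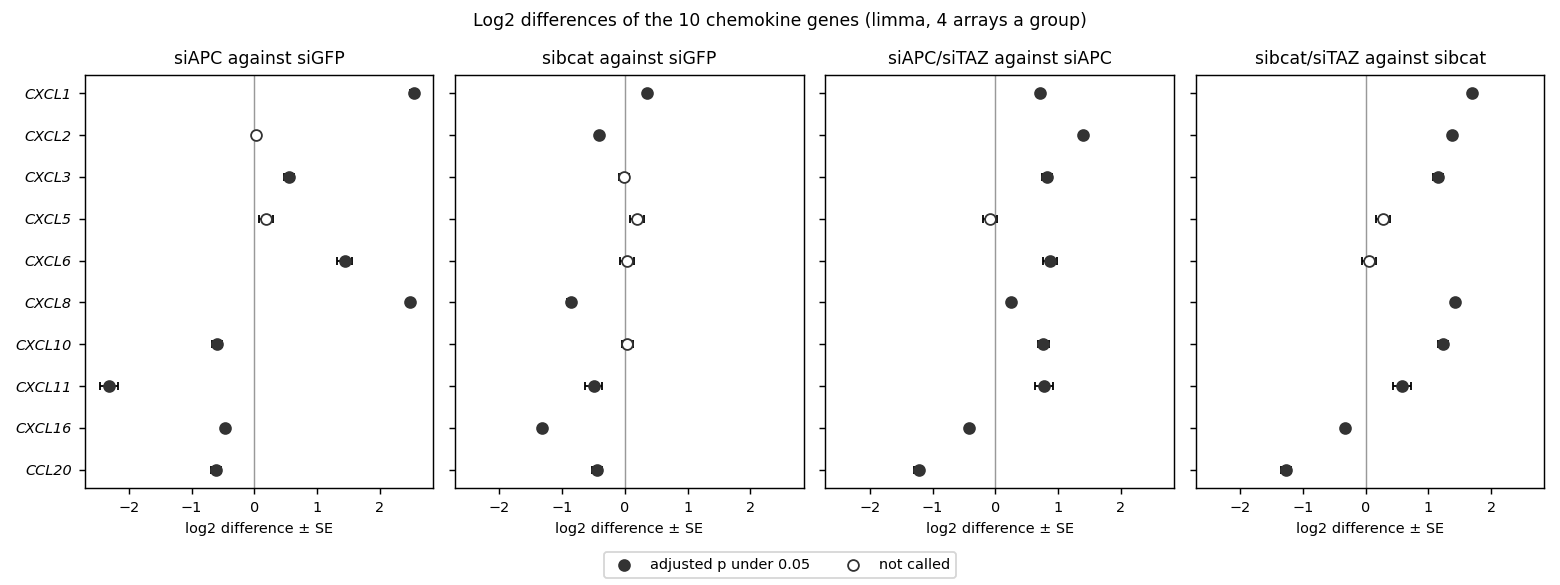
Log2 differences of the 10 chemokine genes (horizontal axis, limma estimate with SE bars) in 4 comparisons, each with 4 arrays a group. Filled points passed an adjusted p under 0.05. With TAZ siRNA 7 genes lie above 0 in siAPC cells and 6 in sibcat cells among the filled points, and CXCL16 and CCL20 lie below 0 in both.

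CXCL1, a neutrophil attractant, read 11.33, 11.49, 11.42 and 11.48 on the siAPC arrays, against 8.90, 9.00, 8.78 and 8.88 on the siGFP arrays. On the sibcat arrays it read 9.28, 9.19, 9.21 and 9.31. The lowest siAPC array stood far above the highest array of either other group, and the sibcat arrays stood slightly but wholly above the siGFP arrays. CXCL1 rose 5.82-fold in siAPC cells (log2 difference 2.54, SE 0.05, adjusted p = 6.6e-18) and 1.28-fold in sibcat cells (0.36, 2.2e-05). With TAZ siRNA it read 12.25, 12.09, 12.07 and 12.17 on the siAPC/siTAZ arrays and 10.98, 10.91, 10.88 and 11.02 on the sibcat/siTAZ arrays. The 5 groups did not overlap at any step of their order, in which siGFP was lowest and siAPC/siTAZ highest. TAZ siRNA raised CXCL1 by 0.71 on APC depletion (1.1e-09) and by 1.70 on beta-catenin depletion (4.1e-15). The effect on APC depletion minus that on beta-catenin depletion was -0.985 (SE 0.08, adjusted p = 7.4e-09). This test of the difference between both TAZ siRNA effects called 5 of the 10 members, beside 27.7% of all genes. In siAPC/siTAZ cells CXCL1 stood 9.55-fold above siGFP cells.

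CXCL8 read 11.20, 11.22, 11.34 and 11.39 on the siAPC arrays, against 8.87, 8.83, 8.83 and 8.69 on the siGFP arrays. On the sibcat arrays it read 7.99, 7.97, 7.95 and 7.86. The depletions thus stood on opposite sides of the control, with no overlap. CXCL8 rose 5.59-fold in siAPC cells (2.48, SE 0.05, 9.0e-18) and fell by 0.86 in sibcat cells (SE 0.05, 1.4e-10), and the direct comparison of siAPC with sibcat cells gave a 10.2-fold difference (3.35, 4.6e-19). That comparison called 8 of the 10 members, beside 33.8% of all genes. With TAZ siRNA, CXCL8 read 11.45, 11.49, 11.58 and 11.66 on the siAPC/siTAZ arrays and 9.36, 9.37, 9.40 and 9.33 on the sibcat/siTAZ arrays. It rose in both, by 0.26 on APC depletion (5.6e-04) and by 1.42 on beta-catenin depletion (6.4e-14), and these rises differed by -1.17 (SE 0.08, 7.6e-10). A second CXCL8 probe set ran the same way, with differences of 2.83 and -0.65 for siAPC and sibcat against siGFP, and 0.38 and 1.31 for TAZ siRNA on each (adjusted p at most 1.2e-04 over all probe sets).

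**Figure D3:**
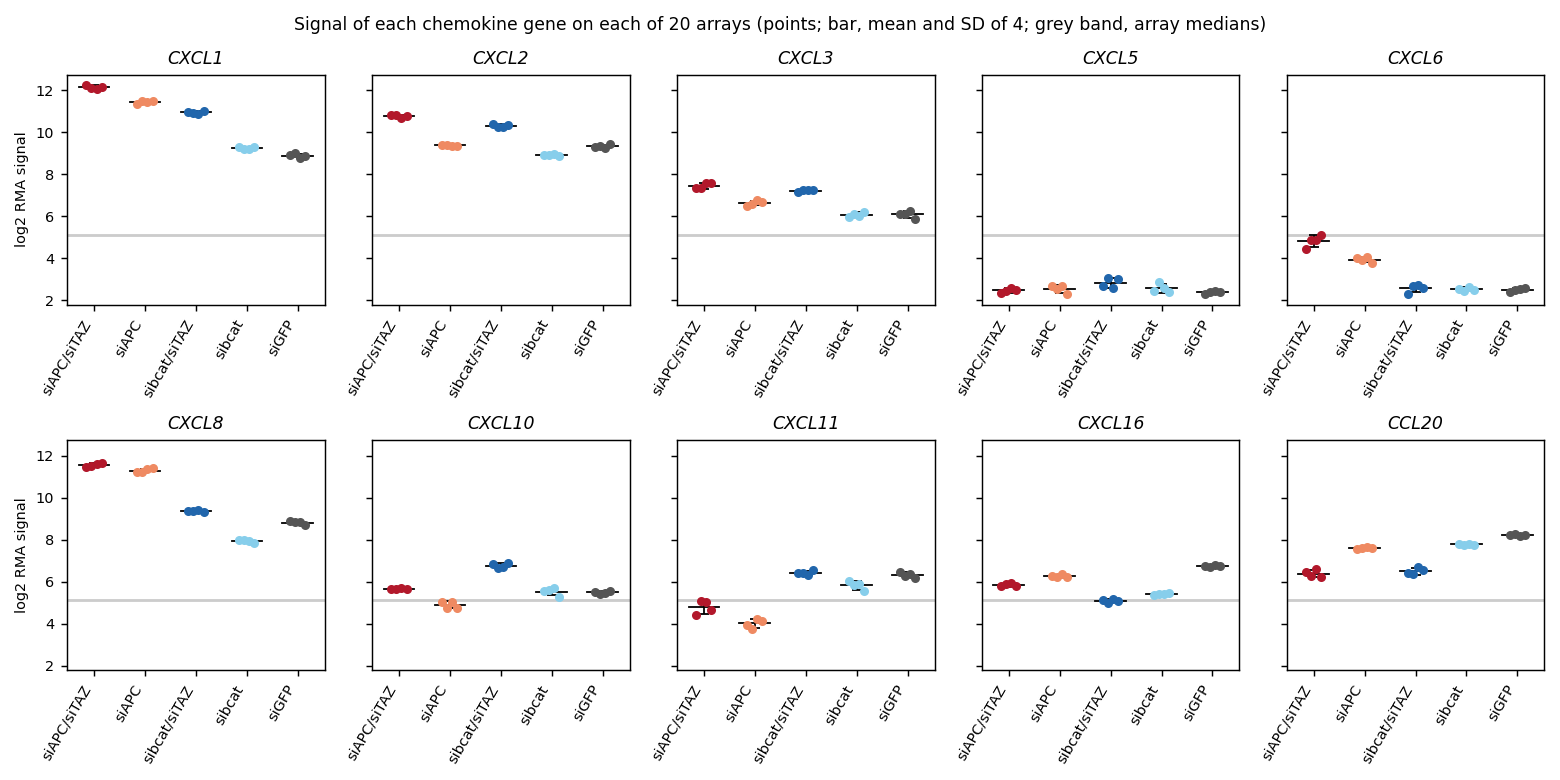
The log2 signal of each of the 10 chemokine genes (vertical axis) on every array, by group, with siGFP at the right. Points are arrays, bars the group means with SD, and the grey band spans the array medians of 5.07 to 5.11. CXCL1 and CXCL8 separate all 5 groups, and CXCL5 lies below the band on all 20 arrays.

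CXCL2, also a CXCR2 ligand, rose with TAZ siRNA on both depletions. It read 9.40, 9.38, 9.36 and 9.35 on the siAPC arrays, against 9.31, 9.35, 9.27 and 9.44 on the siGFP arrays, and the groups overlapped. The difference was 0.03 (95% interval -0.06 to 0.12, adjusted p = 0.646). In sibcat cells it read 8.92, 8.92, 8.97 and 8.89 and fell by 0.42 (1.6e-07). TAZ siRNA gave CXCL2 10.80, 10.81, 10.70 and 10.76 on the siAPC/siTAZ arrays and 10.38, 10.24, 10.25 and 10.35 on the sibcat/siTAZ arrays. All of these lie above every array without TAZ siRNA. The rises were 2.63-fold on APC depletion (1.40, SE 0.04, 1.5e-15) and 2.60-fold on beta-catenin depletion (1.38, SE 0.04, 3.1e-15). Their difference was 0.015 (95% interval -0.11 to 0.14, adjusted p = 0.902). Of its other probe sets, which lay below the array medians in every group mean, 1 was called higher with TAZ siRNA on both depletions (0.47, adjusted p = 0.00197, and 0.32, 0.0397, over all probe sets) and 1 was called in no comparison. Neither was called in sibcat against siGFP cells (-0.06, 0.783, and 0.06, 0.745).

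CXCL3 averaged 6.63 ± 0.11 in siAPC and 6.07 ± 0.12 in sibcat cells, against 6.09 ± 0.15 in siGFP cells (SD, n = 4 each). It rose by 0.55 in siAPC cells (SE 0.08, 1.0e-05), and in sibcat cells the difference was -0.02 (95% interval -0.19 to 0.15, adjusted p = 0.885). With TAZ siRNA it rose by 0.82 on APC depletion and by 1.16 on beta-catenin depletion (4.0e-08 and 4.9e-10), and no array of either combined depletion overlapped its single depletion. The difference between these rises, -0.34, passed the test (0.0283) but lost the call without any of 7 single arrays (adjusted p 0.0522 to 0.0648), which are replicates A and B of siAPC/siTAZ, C and D of siAPC, C of sibcat/siTAZ and A and C of sibcat. CXCL1, CXCL2 and CXCL3 are close relatives in sequence, and the probe set used for CXCL2 is of a class that may read related transcripts, so a signal may come from more than 1 of them.

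CXCL6 and CXCL5, the pair with the most alike promoters, were the members with low signal: their group means lay below the array median in every group. CXCL6 read 4.02, 3.90, 4.07 and 3.77 on the siAPC arrays, against 2.41, 2.50, 2.52 and 2.59 on the siGFP arrays. On the siAPC/siTAZ arrays it read 4.42, 4.88, 4.86 and 5.10, above every siAPC array. In sibcat/siTAZ and sibcat cells it averaged 2.59 and 2.54, close to siGFP cells. CXCL6 rose by 1.43 in siAPC against siGFP cells (SE 0.11, 2.6e-09) and by a further 0.88 with TAZ siRNA (2.1e-06). On beta-catenin depletion the TAZ siRNA difference was 0.05 (95% interval -0.19 to 0.29, adjusted p = 0.809), and the effects of TAZ siRNA on both backgrounds differed by 0.82 (SE 0.16, 5.0e-04). The sibcat/siTAZ, sibcat and siGFP signals of CXCL6 are so low that an effect there may not show. CXCL5 ranged from 2.29 to 3.06 over all 20 arrays, and each neighbouring pair of groups in its order overlapped. It was called in sibcat/siTAZ against siGFP cells (0.47, adjusted p = 0.002) and in siAPC/siTAZ against sibcat/siTAZ cells (-0.37, 0.011), both at signals far below the array median. Its other 2 probe sets were not called in either comparison, and a mean over its probe sets lost both calls (adjusted p 0.0517 and 0.0749).

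CXCL11 and CXCL10, the CXCR3 ligands, stood lower in siAPC cells. CXCL11 read 3.94, 3.75, 4.24 and 4.12 on the siAPC arrays, against 6.47, 6.28, 6.37 and 6.19 on the siGFP arrays. On the sibcat arrays it read 6.05, 5.85, 5.87 and 5.55. No siAPC array came near the control, and the sibcat arrays lay just below it. CXCL11 was 4.98-fold lower in siAPC cells (-2.31, SE 0.14, 3.6e-11) and 1.41-fold lower in sibcat cells (-0.50, 0.00684), and the siAPC signal lay below the array median. With TAZ siRNA it read 4.40, 5.09, 5.04 and 4.63 on the siAPC/siTAZ arrays and 6.39, 6.41, 6.29 and 6.54 on the sibcat/siTAZ arrays. It rose by 0.78 on APC depletion (9.1e-05) and by 0.58 on beta-catenin depletion (0.00257). The test of their difference gave 0.20 (95% interval -0.21 to 0.61, adjusted p = 0.527). The siAPC and siAPC/siTAZ means, 4.01 and 4.79, both lay below the array medians, so the rise on APC depletion may be understated.

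The second CXCL11 probe set, which lay below the array median in every group mean, did not follow in all of this. It fell by 0.95 in siAPC against siGFP cells (7.3e-07). In sibcat against siGFP cells its difference was -0.17 (0.312). With TAZ siRNA it rose on beta-catenin depletion (0.56, 5.8e-04), while on APC depletion the difference was 0.05 (0.761). Its TAZ siRNA effects differed by -0.51 (0.0256), so for CXCL11 the test of that difference depends on the probe set.

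**Figure D4:**
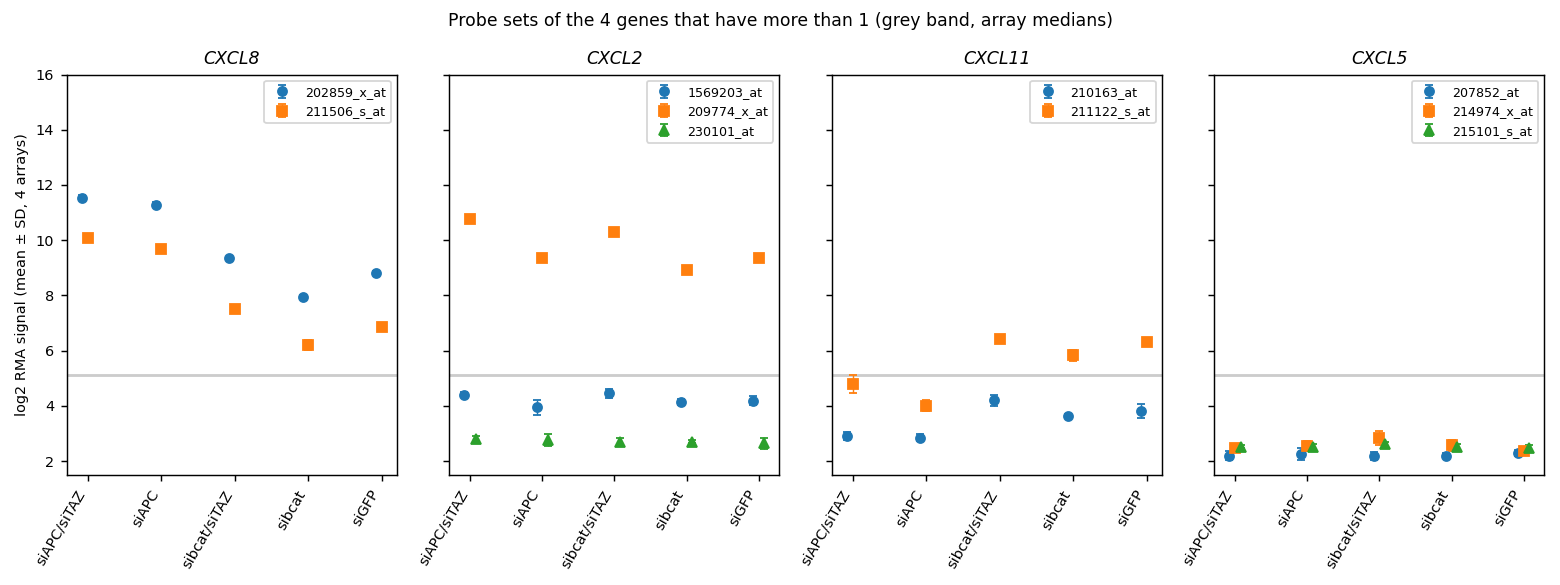
Log2 signal (vertical axis, mean ± SD of 4 arrays) of every probe set of the 4 genes with more than 1, by group. The grey band marks the array medians. Both CXCL8 probe sets lie above the band in every group, and all 3 of CXCL5 lie below it.

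CXCL10 read 5.04, 4.75, 5.03 and 4.76 on the siAPC arrays, against 5.49, 5.41, 5.48 and 5.57 on the siGFP arrays. It fell by 0.59 in siAPC cells (SE 0.08, 7.1e-06), where its mean of 4.895 lay below the array medians. Differences from the siAPC cells may therefore be understated. In sibcat cells the CXCL10 difference was 0.04 (95% interval -0.13 to 0.21, adjusted p = 0.769). With TAZ siRNA it read 5.64, 5.65, 5.69 and 5.66 on the siAPC/siTAZ arrays and 6.83, 6.65, 6.68 and 6.88 on the sibcat/siTAZ arrays. The sibcat/siTAZ arrays were the highest of all for this gene, with no overlap. TAZ siRNA raised CXCL10 by 0.77 on APC depletion (2.0e-07) and 1.23 on beta-catenin depletion (4.0e-10), and the rises differed by -0.47 (SE 0.12, 0.00475). Against siGFP cells, CXCL10 rose in sibcat/siTAZ cells (1.27, 1.3e-10), where 8 members were called beside 44.9% of all genes. In siAPC/siTAZ against siGFP cells, where 8 members were called beside 47.2%, its groups did not overlap but the difference of 0.17 missed the threshold (0.1).

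CXCL16 and CCL20 were the members that TAZ siRNA lowered. CXCL16 read 6.27, 6.20, 6.36 and 6.22 on the siAPC arrays and 5.34, 5.43, 5.39 and 5.48 on the sibcat arrays, against 6.72, 6.70, 6.77 and 6.73 on the siGFP arrays. The siGFP arrays were the highest and no groups overlapped. CXCL16 fell by 0.47 in siAPC cells (1.5e-07). In sibcat cells it fell by 1.32 (SE 0.05, 4.3e-14), which is 2.50-fold lower. The combined depletions gave 5.77, 5.90, 5.91 and 5.78 on the siAPC/siTAZ arrays and 5.11, 4.99, 5.17 and 5.07 on the sibcat/siTAZ arrays. It fell by a further 0.42 on APC depletion (4.8e-07) and 0.33 on beta-catenin depletion (2.5e-05), and the difference between these falls was -0.10 (95% interval -0.24 to 0.05, adjusted p = 0.358). The order of all 5 groups, with sibcat/siTAZ lowest and siGFP highest, had no overlap at any step. ADAM10, which sheds CXCL16, differed by 0.05 or less with TAZ siRNA on either depletion or in either single depletion (adjusted p at least 0.247). ADAM17, a related protease, rose by 0.35 in siAPC against siGFP cells (7.4e-07) and by a further 0.38 with TAZ siRNA (1.5e-07).

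CCL20 read 7.57, 7.59, 7.63 and 7.62 on the siAPC arrays and 7.81, 7.73, 7.79 and 7.74 on the sibcat arrays, against 8.21, 8.26, 8.18 and 8.20 on the siGFP arrays. Both single depletions lay wholly below the control. CCL20 fell by 0.61 in siAPC cells (1.4e-06). In sibcat cells the difference was -0.445 (7.2e-05), and the direct comparison between them gave -0.17 without passing the threshold (0.105). The added TAZ siRNA gave 6.44, 6.28, 6.60 and 6.20 on the siAPC/siTAZ arrays and 6.40, 6.35, 6.71 and 6.53 on the sibcat/siTAZ arrays. It was 2.33-fold lower on APC depletion (-1.22, SE 0.08, 4.6e-11) and 2.41-fold lower on beta-catenin depletion (-1.27, SE 0.08, 5.4e-11). The combined depletions overlapped each other, and the TAZ siRNA effects differed by 0.05 (95% interval -0.18 to 0.27, adjusted p = 0.811).

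Between the combined depletions, siAPC/siTAZ against sibcat/siTAZ, 9 members were called beside 45.0% of all genes. CXCL8 was 4.53-fold higher (2.18, 4.9e-17) and CXCL1 2.29-fold higher (1.20, 3.2e-13) with APC depletion. CXCL6 was higher too (2.23, 1.8e-12), against a sibcat/siTAZ signal far below the array median, where differences may be understated. CXCL16 (0.76) and CXCL2 (0.46) were higher as well. CXCL11 was 3.07-fold lower (-1.62, 4.5e-09) and CXCL10 2.14-fold lower (-1.10, 7.8e-10). CXCL3 was called at 0.23 (0.0239) and lost the call without replicate C or D of siAPC/siTAZ or replicate A of sibcat/siTAZ (adjusted p 0.0624 to 0.0841).

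Of 7 measured receptors of these ligands, the same 1 rose in siAPC and in sibcat cells (21.3% and 21.4% of all genes called higher). It was ACKR3, a scavenging receptor that binds CXCL11, which rose by 1.82 and 1.48 (8.2e-11 and 2.7e-09). TAZ siRNA lowered ACKR3 by 3.10 on APC depletion (2.0e-14) and by 3.04 on beta-catenin depletion (5.2e-14), so that it averaged 3.89 in siAPC/siTAZ and 3.62 in sibcat/siTAZ cells, below the array medians. CXCR3, the receptor of CXCL10 and CXCL11, fell with TAZ siRNA on beta-catenin depletion (-0.30, 0.0494), close to the threshold. CXCR2 averaged 2.31 to 2.43 and CCR6 2.88 to 3.06 over the 5 groups, also below the array medians, and neither was called in a comparison of one group with another. Of 17 other chemokine genes measured, 0 rose and 3 fell in siAPC cells (21.3% and 18.7% of all genes). In sibcat cells 3 rose and 3 fell (21.4% and 15.7%). With TAZ siRNA 2 were called higher and 1 lower on APC depletion (20.7% and 22.8%). On beta-catenin depletion 3 were called higher and 1 lower with it (18.0% and 13.7%). These counts lay near or below the shares of all genes. CCL28, an epithelial chemokine, fell by 1.39 in siAPC and 1.80 in sibcat cells (5.5e-15 and 1.8e-16). CXCL9, the other interferon-induced CXCR3 ligand, averaged 4.42 to 4.75 over the groups and was not called in the single depletions or with TAZ siRNA. CCL5, a T cell attractant, rose by 0.49 in sibcat cells (0.00172) and by a further 0.70 with TAZ siRNA (7.0e-05).

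The NF-kB list held 18 measured genes of its subunits, their activating kinase complex and feedback. Of these, 2 rose and 8 fell in siAPC cells (21.3% and 18.7% of all genes). In sibcat cells 2 rose and 10 fell (21.4% and 15.7%). With TAZ siRNA 9 rose and 2 fell on APC depletion (20.7% and 22.8% of all genes). On beta-catenin depletion 7 rose and 1 fell with it (18.0% and 13.7%). The median differences were 0.12 and 0.09, beside -0.03 and 0.01 over all genes. TNFAIP3, a feedback inhibitor induced by NF-kB, rose by 0.95 in siAPC cells (7.7e-12) and fell by 0.18 in sibcat cells (0.00757), and TAZ siRNA raised it by 1.09 and 0.64 on APC and beta-catenin depletion (8.0e-13 and 4.7e-09). NFKBIZ, a cofactor of NF-kB, fell by 0.38 in siAPC and 0.78 in sibcat cells and rose with TAZ siRNA by 1.03 and 0.90 (1.4e-13 and 2.4e-12). NFKBIA, the inhibitor of NF-kB that NF-kB itself induces, rose with TAZ siRNA by 0.59 and 0.65 (2.5e-08 and 1.4e-08), with a difference of -0.06 in siAPC against siGFP cells (0.426). RELA, a subunit, fell with TAZ siRNA on beta-catenin depletion (-0.17, 0.044) and gave -0.14 on APC depletion (0.0657). TNFAIP2, also on this list, fell by 1.32 in siAPC cells (7.6e-11) and averaged 6.66 in sibcat against 7.69 in siGFP cells. With TAZ siRNA it averaged 6.68 in siAPC/siTAZ and 6.64 in sibcat/siTAZ cells. CHUK, of the activating kinase complex, averaged 7.195 in siAPC/siTAZ against 7.95 in siAPC cells, and 8.65 in sibcat/siTAZ against 8.68 in sibcat cells. These are RNA levels, and NF-kB activity was not measured.

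A further 19 measured genes belong to cytokine and receptor pathways that can induce these chemokines, with the antagonist IL1RN among them. Of these, 7 rose and 6 fell in siAPC cells (21.3% and 18.7% of all genes). In sibcat cells 3 rose and 8 fell (21.4% and 15.7%). With TAZ siRNA 8 rose and 4 fell on APC depletion (20.7% and 22.8% of all genes). On beta-catenin depletion 6 rose and 4 fell with it (18.0% and 13.7%). IL1B, an inducer of the CXCR2 ligands, differed by -1.55 in siAPC and by -0.78 in sibcat cells (4.2e-16 and 2.4e-11, both against siGFP) and rose with TAZ siRNA by 0.90 and 0.69 (1.4e-12 and 1.4e-10). IL1A, the related cytokine, rose by 0.24 in siAPC cells (1.2e-04) and fell by 0.72 in sibcat cells (7.4e-11). Its rise with TAZ siRNA was 0.13 on APC depletion (0.02) and 0.96 on beta-catenin depletion (1.0e-12), a difference of -0.83 (4.0e-09). IL1R1, their receptor, rose with TAZ siRNA by 1.38 and 0.96 (2.5e-16 and 9.4e-14). IL1RN, the receptor antagonist, fell by 2.38 in sibcat cells (1.4e-17), and with TAZ siRNA it fell by 1.31 on APC depletion (4.9e-14). IL6 fell by 1.57 in siAPC cells (1.2e-13) and averaged 8.05 in sibcat against 6.84 in siGFP cells. With TAZ siRNA it averaged 6.345 in siAPC/siTAZ against 5.27 in siAPC cells, and 8.475 in sibcat/siTAZ cells. TNF averaged 3.67 to 3.91 in the 5 groups, below the array medians. Another 7 measured genes act in the turnover of AU-rich messages such as those of chemokines (among them MAPKAPK2, a kinase of that pathway). Not all of them promote decay, so the counts give no direction of turnover. Among these, 3 rose and 4 fell in siAPC cells (21.3% and 18.7% of all genes). In sibcat cells 2 rose and 1 fell (21.4% and 15.7%). With TAZ siRNA 1 rose and 3 fell on APC depletion (20.7% and 22.8% of all genes). On beta-catenin depletion 2 rose and 1 fell with it (18.0% and 13.7%).

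Interferon-related genes were mostly lower in siAPC than in sibcat cells: of 18 measured, 1 was called higher and 13 lower in the direct comparison (16.3% and 17.5% of all genes), and 4 were not called. These 18 are interferons, their targets and receptors, and IRF factors. Of them, 1 rose and 11 fell in siAPC cells (21.3% and 18.7% of all genes). In sibcat cells 10 rose and 2 fell (21.4% and 15.7%). With TAZ siRNA 5 rose and 4 fell on APC depletion (20.7% and 22.8% of all genes) and 11 rose and 0 fell on beta-catenin depletion (18.0% and 13.7%), by limma at an adjusted p under 0.05. The difference between these effects was called for 14 of the 18, beside 27.7% of all genes, 3 higher and 11 lower on APC depletion. OAS1, an antiviral enzyme, fell by 1.36 in siAPC cells (6.8e-12) and rose by 0.34 in sibcat cells (8.8e-04), and with TAZ siRNA it rose by 0.43 and 1.24 (5.6e-05 and 5.1e-11). IRF1, a factor induced by interferon-gamma, fell by 1.27 in siAPC cells (3.2e-12) and rose by 0.71 with TAZ siRNA on APC depletion (1.6e-08). IFIT1 rose by 2.22 in sibcat cells (5.3e-16) and by a further 1.18 with TAZ siRNA (8.8e-12), and on APC depletion it fell by 0.59 with TAZ siRNA (1.2e-07). CXCL11, unlike most of this list, fell in sibcat cells, and CXCL10 gave no call there.

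**Figure D5:**
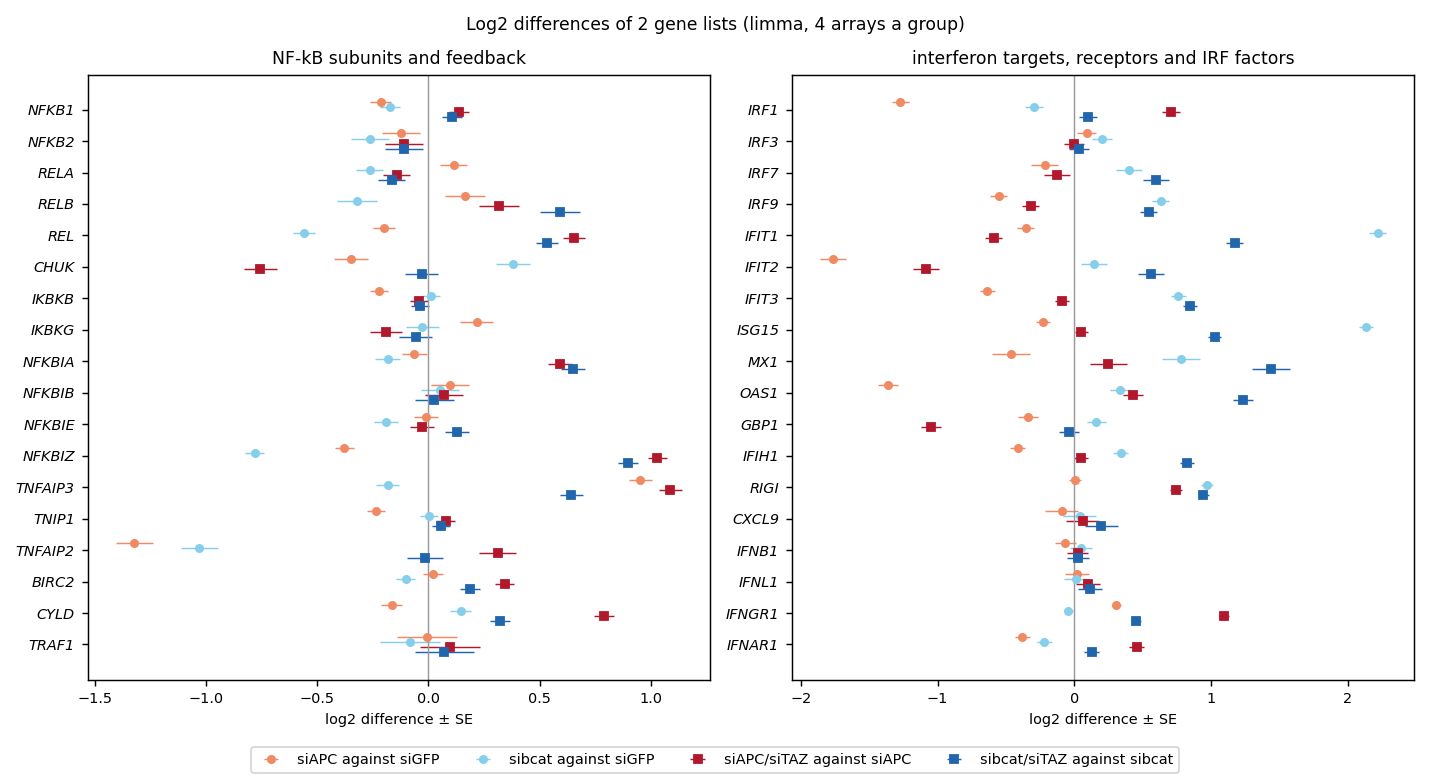
Log2 differences (horizontal axis, limma estimate with SE bars) of 18 NF-kB genes and 18 interferon-related genes in 4 comparisons, shown as colours. With TAZ siRNA on beta-catenin depletion, 7 NF-kB genes rose and 1 fell and 11 interferon-related genes rose, at an adjusted p under 0.05.

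Across the 20 arrays, the genes closest to each of 4 members among 2612 compared were named by Pearson's r, as a description of arrays that share the group structure. VCAN lay closest to CXCL1 (r = 0.98) and MMP16 to CXCL8 (r = 0.98). RERG was nearest to CXCL10 (r = 0.98), and OAS3 was among its first 5. PLAAT3 lay closest to CCL20 (r = 0.98), and WWTR1, the TAZ gene, was the third (r = 0.976).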

How the data were processed

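Total RNA of MII cells was labelled with biotin and hybridised to Affymetrix expression arrays, 1 per sample. The authors deposited log2 signals made with RMA, which the submitters' processing notes name without a version; the log2 scale was read from the values themselves. All 54675 probe sets on 20 arrays were read. From the deposited annotation, 62 control probe sets were left out, and 1 probe set per gene, the one with the highest mean over the arrays, gave 19775 genes, with no filter on low values. Of the probe sets, 41097 carried 1 gene symbol, and 41043 of these matched RefSeq.

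With a mean for each group, all 20 arrays entered 1 fit with limma 3.58.1 in R 4.3.3 (eBayes, two-sided), with Benjamini-Hochberg adjustment over all genes in each of 9 comparisons, and was tested on simulated data. Intervals are at 95% and unadjusted. Promoters of RefSeq were aligned with Biopython (match 1, mismatch -1, gap opening -2, gap extension -0.5). Named genes were the 10 members, the siRNA targets, up to 4 genes of a list with the smallest adjusted p in a comparison, and, for 4 members, genes among the 5 with the highest correlation. CXCL9, RELA, TNF and PTPRC were added for their roles after their values were seen. The members and the 14 gene lists were chosen with earlier results of these data known. The alternatives were other probe set rules, 2 filters on low signal, centring of arrays, trended and robust moderation, fits on the compared groups, each array left out, and the replicate letter as a block. Same-letter residuals correlated with a median of 0.027 (8 of 40 above 0.1). Residuals of different letters were not compared, so these values cannot exclude a weak pairing by letter.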

Additional observations from a re-analysis of the deposited data

Results flagged for a closer look

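The effect of TAZ siRNA differed between the APC and the beta-catenin background for 5 of the 10 chemokine genes, by the test of the difference itself, which called 27.7% of all genes. The value is the effect on APC depletion minus that on beta-catenin depletion, on the log2 scale. It was -0.985 for CXCL1, -1.165 for CXCL8, -0.4675 for CXCL10 and -0.34 for CXCL3, whose rise with TAZ siRNA was the smaller on APC depletion. It was 0.825 for CXCL6, which rose with TAZ siRNA on APC depletion. The CXCL3 difference lost its call when any of several single arrays was left out (adjusted p 0.0522 to 0.0648), so it is less certain. The CXCL6 signal on beta-catenin depletion, 2.59 in sibcat/siTAZ and 2.54 in sibcat cells, lay far below the array medians, so an effect there may not show and this difference is less certain. The CXCL10 mean in siAPC cells, 4.895, lay below the array medians too, so its rise on APC depletion may be understated. CXCL1 and CXCL8 already averaged 11.43 and 11.29 in siAPC cells, and whether so high a signal limited their rises was not tested. The second CXCL8 probe set gave a difference of -0.925 (adjusted p = 5.2e-07 over all probe sets, limma). CTNNB1 fell by 1.41 with TAZ siRNA on beta-catenin depletion and APC by 0.46 on APC depletion, and the part of either in these differences was not tested. No array stood apart from the other 3 of its group in the signal of any member.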

How the results depend on the processing

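With only genes whose highest group mean was at least 7, the 5 members CXCL1, CXCL2, CXCL3, CXCL8 and CCL20 were left to test. The number called was then 4 for siAPC and 4 for sibcat against siGFP, 5 for siAPC/siTAZ against siAPC, 5 for sibcat/siTAZ against sibcat, 5 for siAPC/siTAZ and 5 for sibcat/siTAZ against siGFP, 5 for siAPC against sibcat (with CCL20 gained, adjusted p = 0.046), 4 for siAPC/siTAZ against sibcat/siTAZ and 3 for the difference between the TAZ siRNA effects. Fewer members could be called under this filter. The share of all genes called was not worked out under it, so these counts cannot be set beside a share. Leaving out each array gave 8 to 9 for sibcat/siTAZ against sibcat, 8 to 9 for siAPC/siTAZ against siGFP, 8 to 9 for siAPC/siTAZ against sibcat/siTAZ and 4 to 6 for the difference between TAZ siRNA effects, and the other counts were 8 for siAPC, 6 for sibcat and 8 for sibcat/siTAZ against siGFP, 9 for siAPC/siTAZ against siAPC and 8 for siAPC against sibcat throughout. With the replicate block, the counts were 8, 6, 9, 8, 8, 8, 8, 9 and 5 in the order of the 9 comparisons (siAPC and sibcat against siGFP, both TAZ siRNA effects, both combined depletions against siGFP, both comparisons between backgrounds, and the difference), as without it. No called difference changed its sign under any alternative run. These runs read each gene by the probe set used or by the mean over its probe sets. Other single probe sets were outside that check, and some had the opposite sign. A low CXCL2 probe set gave -0.19 in siAPC against sibcat cells (adjusted p = 0.263 over all probe sets), against 0.45. The second CXCL11 probe set gave -0.51 for the difference between TAZ siRNA effects (0.0256), against 0.20. A mean over probe sets lost the calls of CXCL2 in sibcat against siGFP (-0.14, adjusted p = 0.074) and in siAPC against sibcat cells (0.11, 0.18). These means take in the low CXCL2 probe sets, which gave -0.06 and 0.06 in the first comparison and -0.19 and 0.07 in the second. The probe set used gave -0.42 and 0.45. With only the compared groups in the fit, CXCL10 in siAPC/siTAZ against siGFP (0.0109) and CCL20 in siAPC against sibcat (0.0131) passed. CXCL5 passed with TAZ siRNA on beta-catenin depletion without sibcat/siTAZ replicate C (0.0224) or sibcat replicate B (0.0161), and in the difference between TAZ siRNA effects without siAPC replicate D (0.0419), sibcat/siTAZ replicate C (0.0416) or sibcat replicate B (0.0333). CXCL10 passed in siAPC/siTAZ against siGFP without sibcat replicate D (0.0474), and CCL20 in siAPC/siTAZ against sibcat/siTAZ without siAPC/siTAZ replicate C (0.0325). Low signal limits CXCL5 and CXCL6, below the array median in every group mean, and RMA values of such probe sets may understate differences. Group means of CXCL11 in siAPC and siAPC/siTAZ cells and of CXCL10 in siAPC cells lay below the array medians too.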
